A study of Mus musculus with 8 samples.

Results

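Collagens and laminins are the chains of the extracellular matrix, and the 55 mouse genes described here are those whose symbols name a collagen chain (Col, a type number, a and a chain number) or a laminin chain (Lama, Lamb or Lamc and a number), out of 49641 gene entries measured by RNA sequencing. They fall into 17 basement membrane chains (6 type IV collagen and 11 laminin genes), 11 fibrillar collagens and 27 other collagens. The cells were mouse embryonic stem cells, and 4 groups had 2 libraries each, 8 in all. The miR-294 group is Dgcr8 knockout (KO) cells given a mimic of the microRNA miR-294, and the siMbnl1/2 group is Dgcr8 KO cells given siRNAs against the splicing regulators Mbnl1 and Mbnl2, each at 50 nM and 16 hours after plating. Dgcr8 KO cells and wild-type (WT) cells with no such RNA served as their controls, so the miR-294, siMbnl1/2 and Dgcr8 KO groups all carry the Dgcr8 deletion. Dgcr8 is the partner of the nuclease Drosha in the first step of microRNA maturation. All cells are labelled V6.5, a line of 129/C57BL/6 background, and were kept in medium with serum and LIF, either on gelatin or on irradiated mouse embryonic fibroblasts, without a record of which sample had which. The data columns name WT and Dgcr8 KO cells differently (V65-mock and ES1-mock), so a difference between them also holds any difference between lines. Both controls are thus named mock, and no group is labelled as given a control RNA. An effect of adding any small RNA therefore cannot be told apart from that of miR-294 or of the siRNAs. Nothing states that replicates were separate cultures, and p-values then measure only the spread between these libraries, which may be technical.

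A basement membrane is a sheet built from a laminin network and a type IV collagen network, joined by nidogens and heparan sulfate proteoglycans. Laminins are trimers of an alpha, a beta and a gamma chain, and the alpha chain largely sets which receptors the trimer binds. Type IV collagen forms a net, whereas fibrillar collagens pack into the banded fibrils of connective tissue and cartilage. In the early mouse embryo the first basement membranes are laid down next to primitive endoderm and epiblast, and embryonic stem cells express chains of both networks.

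Levels are FPKM (sequenced fragments per kilobase of a gene's transcript, relative to all fragments mapped in the library), a scale per transcript length on which genes can be compared, and how many reads each value rests on is not known. Differences are of mean log2(FPKM + 1) ± SE from limma, and a gene was called at an adjusted p under 0.05 over the 12786 genes with a mean of at least 1 FPKM. On this scale the change of a low gene is understated. Of the 55 genes, 17 passed that filter, namely 9 basement membrane chains, 2 fibrillar collagens and 6 other collagens. Library sums ran between 473750 and 571510 FPKM, and 12386 to 12860 genes per library were at 1 FPKM or more. Dgcr8 itself was at 7.89 and 8.5 FPKM in Dgcr8 KO cells, against 22.9 and 21.9 FPKM in WT cells, a fall by 1.35 ± 0.10 (adjusted p = 3.47e-05). Its level was 6.81 and 7.28 FPKM with miR-294 and 7.90 and 6.58 FPKM with siMbnl1/2. In siMbnl1/2 cells Mbnl2 was at 11.2 and 14.3 FPKM, against 24.7 and 28.6 FPKM in Dgcr8 KO cells (-1.01 ± 0.12, adjusted p = 0.0191). Mbnl1 was at 6.84 and 6.76 FPKM with siMbnl1/2, against 8.0 and 9.42 FPKM in Dgcr8 KO cells, and did not pass the test (-0.31 ± 0.10, adjusted p = 0.158). Both were also lower with miR-294 than in Dgcr8 KO cells, with differences of -0.68 ± 0.10 for Mbnl1 (adjusted p = 0.00113) and -0.90 ± 0.12 for Mbnl2 (adjusted p = 8.60e-04). Mbnl1 was higher with siMbnl1/2 than with miR-294 (0.37 ± 0.10, adjusted p = 0.0165). All 8 embryonic stem cell markers were above 1 FPKM in every library, among them Pou5f1, whose product Oct4 is a core pluripotency factor, at 685 to 1078 FPKM.

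The basement membrane chains were far more abundant than the fibrillar collagens in every library. Their summed level was 209.8 and 203.0 FPKM with miR-294, 261.6 and 338.3 FPKM with siMbnl1/2, 290.04 and 257.3 FPKM in Dgcr8 KO cells, and 381.7 and 378.03 FPKM in WT cells. The 11 fibrillar collagens summed to 5.79 and 5.87 FPKM with miR-294, 7.25 and 7.36 FPKM with siMbnl1/2, 8.09 and 7.11 FPKM in Dgcr8 KO cells, and 5.64 and 5.58 FPKM in WT cells. The sum of the first class was thus highest in WT cells and lowest with miR-294, and the groups did not overlap except siMbnl1/2 and Dgcr8 KO. The ratio of the sums was 36.2 and 34.6 with miR-294, 36.1 and 45.9 with siMbnl1/2, 35.9 and 36.2 in Dgcr8 KO cells, and 67.7 and 67.8 in WT cells. WT cells stood above every other library in this ratio. No test was made on these sums, which depend on which genes are listed.

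**Figure D1:**
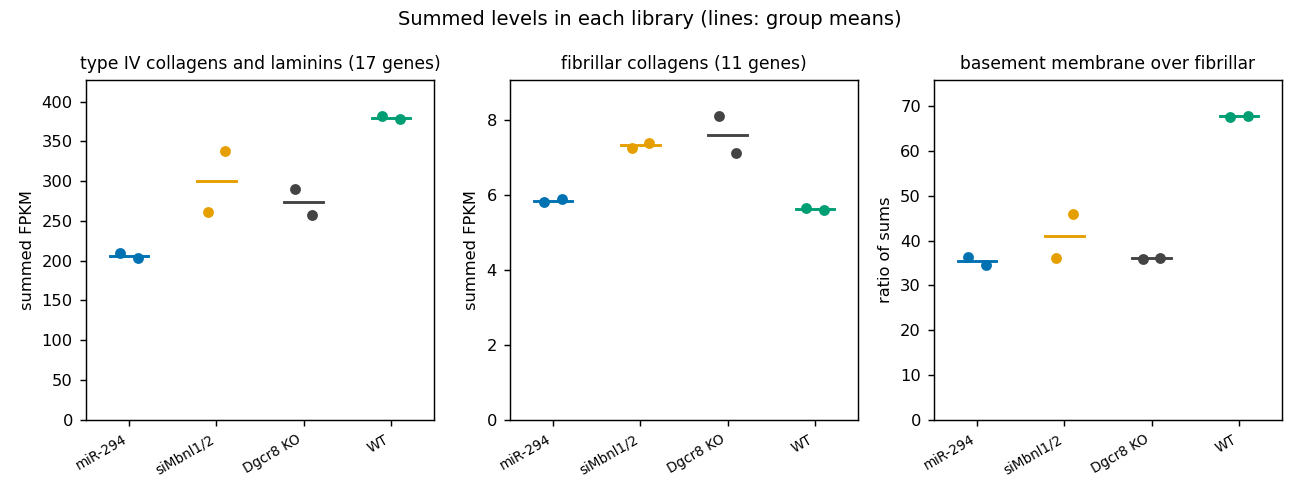
Summed FPKM of the 17 basement membrane chains (left), of the 11 fibrillar collagens (middle) and their ratio (right) in each of the 8 libraries, with a line at each group mean. The ratio lies between 34.6 and 45.9 in the 6 libraries with the Dgcr8 deletion and at 67.7 and 67.8 in WT.

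In Dgcr8 KO cells compared with WT cells, the comparison that asks what changed with the loss of Dgcr8, the basement membrane chains split. Both type IV collagen chains, Lama1 and Lamb1 fell, while Lama3, Lama5 and Lamb2 rose and Lamc1 did not pass the test. Both fibrillar collagens that could be tested, Col2a1 and Col5a1, rose. Of the other collagens, Col18a1 and Col9a2 rose, Col13a1 and Col6a5 fell, and Col9a3 and Col7a1 did not pass. Over the 17 genes 8 rose and 6 fell, and 59.8% of all tested genes were called in this comparison, 29.6% higher and 30.1% lower in Dgcr8 KO cells. The share called among the 17 is therefore read against a background in which most genes were called. The median difference was 0.07 over the 9 basement membrane chains, 0.89 over the 2 fibrillar collagens and 0.00 over all genes tested. The filter acts on the mean over all libraries, so a gene can be kept through the groups where it is high. Col2a1, at 1.00 and 0.85 FPKM in WT cells, was kept through its higher levels in the other groups. Col27a1, at 0.96 and 1.02 FPKM in WT cells and lower elsewhere, was left out. The fibrillar median therefore does not describe that class as a whole.

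Col4a1 and Col4a2 encode the chains of the widespread type IV collagen trimer and were the members with the largest falls after Lama1. Col4a1 (ENSMUSG00000031502.11) was at 15.9 and 13.6 FPKM in Dgcr8 KO cells, against 82.5 and 81.3 FPKM in WT cells (-2.40 ± 0.15, adjusted p = 1.61e-05). Col4a2 (ENSMUSG00000031503.13) was at 10.8 and 9.54 FPKM in Dgcr8 KO cells, against 42.3 and 41.4 FPKM in WT cells (-1.94 ± 0.19, adjusted p = 1.02e-04). Both genes were low in each Dgcr8 KO library and high in each WT library, with no overlap. The level of Col4a1 relative to Col4a2 was 1.47 and 1.43 in Dgcr8 KO cells and 1.95 and 1.96 in WT cells. Reduced transcript per cell and fewer cells that make it cannot be told apart in these bulk samples.

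The genes of this pair lie head to head on chromosome 8 (mm10), Col4a1 at 11198423 to 11312826 on the minus strand and Col4a2 at 11312805 to 11449287 on the plus strand. Their start sites are 21 bases apart and their first transcribed bases overlap by 22, so a promoter window of 250 bases before and 50 bases after the start is shared in part, over 78 bases. Both windows are shown because the genes moved together and are read from the same stretch of DNA. Sequences are from RefSeq (GRCm38.p6), 5′ to 3′ on the strand of each gene, with capitals at every CCAAT and GGGCGG on either strand, the letters of the CCAAT box and of the GC box that binds Sp1.
Col4a1, chr8:11312777-11313076, minus strand: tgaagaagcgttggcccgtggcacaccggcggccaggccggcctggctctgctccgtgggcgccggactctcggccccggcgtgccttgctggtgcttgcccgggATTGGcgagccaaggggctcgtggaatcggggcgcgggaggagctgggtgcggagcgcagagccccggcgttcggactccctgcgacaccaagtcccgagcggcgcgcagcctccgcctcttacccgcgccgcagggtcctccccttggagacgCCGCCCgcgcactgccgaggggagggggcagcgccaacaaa
Col4a2, chr8:11312555-11312854, plus strand: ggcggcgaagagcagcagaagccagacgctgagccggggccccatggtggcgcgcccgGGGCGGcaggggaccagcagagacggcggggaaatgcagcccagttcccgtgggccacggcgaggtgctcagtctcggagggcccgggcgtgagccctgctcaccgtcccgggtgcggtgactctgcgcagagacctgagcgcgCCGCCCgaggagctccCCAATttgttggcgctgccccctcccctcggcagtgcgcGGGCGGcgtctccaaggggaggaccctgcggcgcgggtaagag
The Col4a1 window held 1 CCAAT and 1 GGGCGG, and the Col4a2 window held 1 and 3, where matches in the 78 shared bases count for both. Among 32851 promoters of the same length, 37.4% held a CCAAT and 35.7% a GGGCGG, so neither match is rare. A match of letters is a description and does not show a bound site.

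Among the laminin alpha chains, which set the kind of laminin a cell can make, Lama1 and Lama5 exchanged rank. Lama1, the alpha chain of the laminin of the early embryo, was at 5.35 and 4.66 FPKM in Dgcr8 KO cells, against 43.0 and 44.5 FPKM in WT cells (-2.90 ± 0.10, adjusted p = 1.92e-06). Lama5, the alpha chain made by the epiblast and many later epithelia, was at 46.0 and 39.7 FPKM in Dgcr8 KO cells, against 25.7 and 21.5 FPKM in WT cells (0.83 ± 0.12, adjusted p = 6.20e-04). Neither gene's groups overlapped, with Lama1 the higher of the pair in both WT libraries and Lama5 the higher in both Dgcr8 KO libraries. Lama1 made up 9.77% and 9.72% of the summed alpha chain FPKM in Dgcr8 KO cells, and 61.4% and 66.3% in WT cells. Lama5 made up 83.9% and 82.8% in Dgcr8 KO cells, and 36.7% and 32.1% in WT cells. Lama3, a chain of the laminin that anchors epithelia at hemidesmosomes, was at 3.08 and 3.24 FPKM in Dgcr8 KO cells, against 0.81 and 0.79 FPKM in WT cells (1.21 ± 0.12, adjusted p = 1.29e-04).

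The beta chains shifted in the same comparison. Lamb1, the beta chain of the early embryo's laminin, was at 20.4 and 17.2 FPKM in Dgcr8 KO cells, against 60.5 and 59.96 FPKM in WT cells (-1.63 ± 0.14, adjusted p = 5.49e-05). Lamb2, the beta chain of synaptic and kidney basement membranes, was at 31.0 and 28.1 FPKM in Dgcr8 KO cells, against 11.8 and 12.9 FPKM in WT cells (1.20 ± 0.18, adjusted p = 9.08e-04). Lamb2 was accordingly the larger of these chains in Dgcr8 KO cells, with 59.5% and 61.2% of the summed beta chain FPKM, and the smaller in WT cells, with 16.1% and 17.5%. Lamb3, the beta chain of the hemidesmosomal laminin of Lama3, was at 0.69 and 0.54 FPKM in Dgcr8 KO cells and 0.62 and 0.46 FPKM in WT cells, below the filter. Lamc1, the gamma chain of most laminins and the most abundant laminin gene in every library, was at 116.8 and 104.4 FPKM in Dgcr8 KO cells, against 103.9 and 106.3 FPKM in WT cells. Its groups overlapped, and its difference of 0.07 ± 0.10 did not pass the test (adjusted p = 0.582). With quantile-normalized values the difference was 0.37 and passed (adjusted p = 0.0143).

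**Figure D2:**
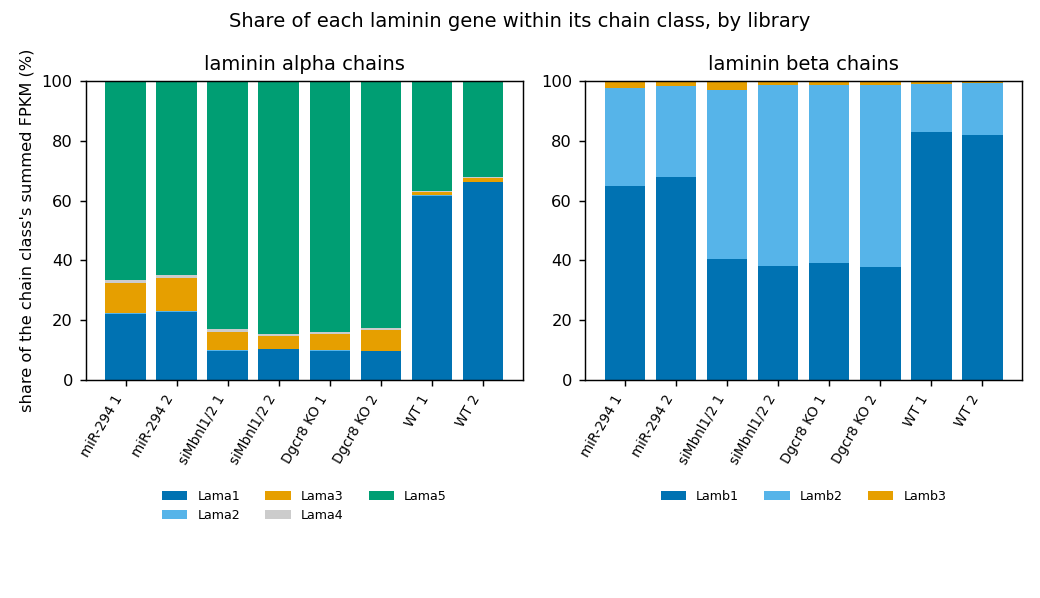
Share of each laminin gene in the summed FPKM of its chain class (alpha, beta) in each library, in percent. Lama1 is 9.72% to 22.8% of the alpha chains in the 6 libraries with the Dgcr8 deletion and 61.4% or more in WT, and Lamb2 is 56.6% or more of the beta chains in the Dgcr8 KO and siMbnl1/2 libraries.

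The fibrillar collagens were low. Col2a1, the fibril collagen of cartilage, was at 4.19 and 3.71 FPKM in Dgcr8 KO cells, against 1.00 and 0.85 FPKM in WT cells (1.36 ± 0.13, adjusted p = 8.42e-05). Col5a1, whose product starts the assembly of collagen fibrils, was at 2.03 and 1.54 FPKM in Dgcr8 KO cells, against 1.10 and 1.06 FPKM in WT cells. The difference in Col5a1 was 0.41 ± 0.15 (adjusted p = 0.0431). Its call was lost without a filter, with quantile-normalized values and without any of 5 libraries in turn (miR-294 replicate 1 or 2, Dgcr8 KO replicate 1, WT replicate 1 or 2), with an adjusted p of up to 0.211. The other 9 fibrillar collagens had 0 to 1.02 FPKM in every library, and the type I collagen chains Col1a1 and Col1a2, the main fibril collagen of connective tissue, stayed under 0.50 FPKM. In a fit without the filter, where 29.2% of all genes were called, 14.4% higher and 14.8% lower, Col1a1 (-0.38 ± 0.08, adjusted p = 0.0119), Col1a2 (-0.44 ± 0.08, adjusted p = 0.00908) and Col27a1, a fibrillar collagen of cartilage (-0.75 ± 0.10, adjusted p = 0.00191), were lower in Dgcr8 KO cells. Col27a1 was at 0.11 and 0.26 FPKM in Dgcr8 KO cells and 0.96 and 1.02 FPKM in WT cells, and these 3 fibrillar collagens differed in the direction opposite to Col2a1 and Col5a1.

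Among the other collagens Col18a1 stood out by its level. Col18a1, a multiplexin of basement membranes whose end fragment is endostatin, was at 140.1 and 120.3 FPKM in Dgcr8 KO cells, against 57.3 and 55.9 FPKM in WT cells (1.18 ± 0.09, adjusted p = 3.48e-05). Col9a2, a chain of the collagen that coats cartilage fibrils, was at 8.95 and 6.63 FPKM in Dgcr8 KO cells, against 3.28 and 3.25 FPKM in WT cells (1.03 ± 0.13, adjusted p = 3.80e-04). These genes were higher in both Dgcr8 KO libraries than in either WT library. Col13a1, a collagen that spans the plasma membrane, was at 0.58 and 0.37 FPKM in Dgcr8 KO cells, against 2.92 and 2.37 FPKM in WT cells (-1.30 ± 0.13, adjusted p = 1.09e-04). Col6a5, a type VI collagen chain of beaded filaments, was at 0.84 and 0.76 FPKM in Dgcr8 KO cells, against 2.71 and 2.84 FPKM in WT cells (-1.07 ± 0.14, adjusted p = 4.98e-04). The other type VI chains Col6a1 and Col6a2, its usual partners, and Col6a3, whose place it can take, were at 0.0100 to 0.25 FPKM in all libraries. Col7a1, the collagen of anchoring fibrils, had 0.84 and 1.07 FPKM in Dgcr8 KO cells and 1.30 and 1.97 FPKM in WT cells (-0.42 ± 0.16, adjusted p = 0.0569). That difference passed with a pseudocount of 0.1, with quantile-normalized values, or without WT replicate 1 or either siMbnl1/2 library, with adjusted p-values of 0.0210 to 0.0472. Col9a3, another chain of the collagen of Col9a2, had 1.42 and 0.82 FPKM in Dgcr8 KO cells and 1.19 and 1.45 FPKM in WT cells (-0.14 ± 0.16, adjusted p = 0.471).

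**Figure D3:**
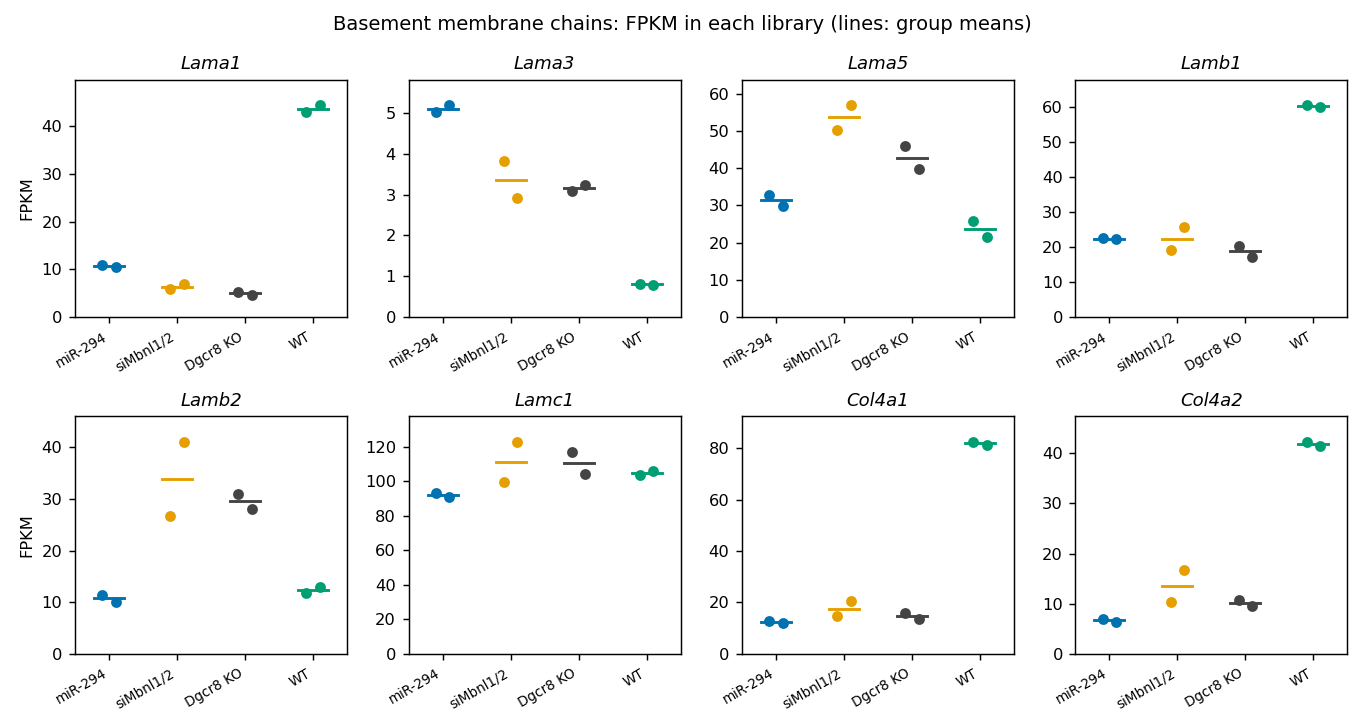
FPKM of 8 tested basement membrane chains in each library, with a line at each group mean and an axis from 0 for each gene. Lama1, Lamb1, Col4a1 and Col4a2 are highest in WT, while Lama5 and Lamb2 are highest in the Dgcr8 KO and siMbnl1/2 libraries.

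The tested markers of primitive and parietal endoderm moved with Col4a1, Col4a2, Lama1 and Lamb1 between Dgcr8 KO and WT cells. Such endoderm cells make much type IV collagen and Lama1 and Lamb1 laminin. The 12 markers summed to 6.24 and 6.27 FPKM with miR-294, 6.25 and 6.86 FPKM with siMbnl1/2, 6.86 and 5.22 FPKM in Dgcr8 KO cells, and 99.3 and 101.6 FPKM in WT cells. All 9 that were tested, among them Gata4, Gata6 and Sox17, were lower in Dgcr8 KO cells than in WT cells, with a median difference of -3.07. Over all tested genes 30.1% were lower and the median difference was 0.00. Ttr was under 0.10 FPKM in every library, and Cubn and Foxa2 were under it in the siMbnl1/2 and Dgcr8 KO libraries. Thbd, below the filter, did not move with the others. It was at 0.196 and 0.165 FPKM in Dgcr8 KO cells and 0.201 and 0.101 FPKM in WT cells, with overlap. The part of these cells in the difference of Col4a1, Col4a2, Lama1 and Lamb1 was not tested. Fibroblast markers, which would show feeder cells, summed to 22.2 and 22.4 FPKM with miR-294, 48.6 and 58.9 FPKM with siMbnl1/2, 23.6 and 20.8 FPKM in Dgcr8 KO cells, and 46.8 and 38.7 FPKM in WT cells. Of the 4 tested, 1 rose and 2 fell in Dgcr8 KO cells compared with WT cells, where 29.6% of all tested genes rose and 30.1% fell. So few genes say little beside that background. Dcn, Fap, Lum, Postn and Prrx1 were under 0.10 FPKM in every library. Most of each sum was 1 gene, the smooth muscle and fibroblast marker Tagln, at 13.4 and 13.1 FPKM with miR-294, 40.3 and 46.7 FPKM with siMbnl1/2, 15.8 and 13.8 FPKM in Dgcr8 KO cells, and 34.2 and 27.1 FPKM in WT cells, so the sums do not describe the list as a whole.

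The comparison of miR-294 with Dgcr8 KO cells asks what this microRNA changed when it was supplied to cells without Dgcr8. Lama1, Lama3, Col6a5 and Col7a1 rose, and Lama5, Lamb2, Col4a2, Col2a1 and Col18a1 fell. Over the 17 genes 4 rose and 6 fell, where 52.2% of all tested genes were called, 22.9% higher and 29.2% lower. The Dgcr8 KO libraries are also those compared with WT above, on the other side of the difference, so opposite directions in these comparisons are not independent observations. The median difference was -0.26 over the basement membrane chains, -0.47 over the 2 fibrillar collagens and -0.06 over all genes tested. Other scalings of the libraries moved the split of all calls, which was 2934 higher and 3737 lower as deposited, 3313 and 3568 with median-of-ratios scaling, and 3279 and 3124 with quantile-normalized values.

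The mature microRNA is shown with its seed, bases 2 to 8, in capitals (RefSeq, GRCm38.p6, chr7:3220691-3220712, plus strand).
mmu-miR-294-3p: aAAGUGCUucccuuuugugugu
A match to this seed reads AGCACTT in a transcript. It occurred in the longest annotated 3′ UTR of 3 of the 17 tested genes, Col18a1, Col4a2 and Lama3, where 17.6% of 11508 tested genes with an annotated 3′ UTR held it. The matches of the members that fell are shown with their flanks (mm10, strand of the gene), with the 7 bases in capitals.
Col18a1, chr10:77052343-77052371, minus strand: cagccacatgaAGCACTTgtcctatgaag
Col4a2, chr8:11448972-11449000, plus strand: gaggagatgatAGCACTTttttctatcaa
Col18a1 and Col4a2 were lower and Lama3 was higher with miR-294 than in Dgcr8 KO cells, and a match of letters does not show a used site.

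Among the laminins, Lamb2 had a larger change than Lama3, Lama5 or Lama1. Lamb2 was at 11.4 and 10.03 FPKM with miR-294, against 31.0 and 28.1 FPKM in Dgcr8 KO cells (-1.38 ± 0.18, adjusted p = 6.71e-04). It was low in each miR-294 library, without overlap with the Dgcr8 KO libraries. Lama5 was at 32.9 and 29.8 FPKM with miR-294, against 46.0 and 39.7 FPKM in Dgcr8 KO cells (-0.44 ± 0.12, adjusted p = 0.0160), a call lost without miR-294 replicate 2 (adjusted p = 0.102) or Dgcr8 KO replicate 1 (adjusted p = 0.0896). Lama3 was at 5.01 and 5.19 FPKM with miR-294, against 3.08 and 3.24 FPKM in Dgcr8 KO cells (0.55 ± 0.12, adjusted p = 0.00712). Lama3 thus had its highest values with miR-294 and its lowest in WT cells.

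Lama1 rose in miR-294 cells, to 10.95 and 10.46 FPKM, against 5.35 and 4.66 FPKM in Dgcr8 KO cells (0.96 ± 0.10, adjusted p = 2.29e-04). Its share of the alpha chains was 22.2% and 22.8% with miR-294 and 9.77% and 9.72% in Dgcr8 KO cells. The type IV collagen genes did not rise with it. Col4a2 was at 6.97 and 6.39 FPKM with miR-294, against 10.8 and 9.54 FPKM in Dgcr8 KO cells (-0.54 ± 0.19, adjusted p = 0.0433), and Col4a1 was at 12.6 and 11.9 FPKM, against 15.9 and 13.6 FPKM, a difference that did not pass (-0.25 ± 0.15, adjusted p = 0.190) except without either siMbnl1/2 library (adjusted p of 0.0392 and 0.0394). The Col4a2 call was lost without a filter, with quantile-normalized values, and without any library of the miR-294, Dgcr8 KO or WT groups, with an adjusted p of up to 0.174. The level of Col4a1 relative to Col4a2 was 1.81 and 1.86 with miR-294 and 1.47 and 1.43 in Dgcr8 KO cells. Lamb1 was at 22.5 and 22.2 FPKM with miR-294 and 20.4 and 17.2 FPKM in Dgcr8 KO cells, and did not pass (0.24 ± 0.14, adjusted p = 0.169) except without either siMbnl1/2 library (adjusted p of 0.0426 and 0.0427). Lamc1 was at 93.5 and 91.1 FPKM with miR-294 and 116.8 and 104.4 FPKM in Dgcr8 KO cells (-0.26 ± 0.10, adjusted p = 0.0707), a difference that passed with quantile-normalized values (-0.44, adjusted p = 0.00789), with the 4 libraries of the comparison alone (adjusted p = 0.0354) or without either siMbnl1/2 library (adjusted p of 0.0146 and 0.0145). Of the 9 endoderm markers tested 4 rose and 2 fell in this comparison, where 22.9% of all tested genes rose and 29.2% fell. The part of the endoderm markers in the rise of Lama1 was not tested.

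Outside the basement membrane class, Col6a5 had the largest rise of the 17 genes. Col6a5 was at 5.01 and 5.26 FPKM with miR-294, against 0.84 and 0.76 FPKM in Dgcr8 KO cells (1.77 ± 0.14, adjusted p = 9.91e-05). Both miR-294 libraries were also above the WT libraries, at 2.71 and 2.84 FPKM. Col18a1 was at 68.9 and 66.3 FPKM with miR-294, against 140.1 and 120.3 FPKM in Dgcr8 KO cells (-0.93 ± 0.09, adjusted p = 1.77e-04). Col2a1 was at 2.02 and 2.01 FPKM with miR-294, against 4.19 and 3.71 FPKM in Dgcr8 KO cells (-0.71 ± 0.13, adjusted p = 0.00254). Col5a1, the other fibrillar gene tested, was at 1.34 and 1.40 FPKM with miR-294 and 2.03 and 1.54 FPKM in Dgcr8 KO cells, without overlap, and did not pass (-0.23 ± 0.15, adjusted p = 0.238). Col7a1 was at 2.02 and 1.61 FPKM with miR-294, against 0.84 and 1.07 FPKM in Dgcr8 KO cells (0.52 ± 0.16, adjusted p = 0.0292), a call lost without a filter or without any library of the pair of groups (adjusted p of up to 0.159). Col13a1 had 0.83 and 0.89 FPKM with miR-294 and 0.58 and 0.37 FPKM in Dgcr8 KO cells (0.34 ± 0.13, adjusted p = 0.0564), and passed with a pseudocount of 0.1 (adjusted p = 0.0412), with median-of-ratios scaling (adjusted p = 0.0397), with quantile-normalized values (adjusted p = 0.0322) or without either siMbnl1/2 library. Col9a2 (-0.28 ± 0.13, adjusted p = 0.111) and Col9a3 (0.13 ± 0.16, adjusted p = 0.519) did not pass, though Col9a2 did without Dgcr8 KO replicate 2 (-0.47, adjusted p = 0.0138).

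**Figure D4:**
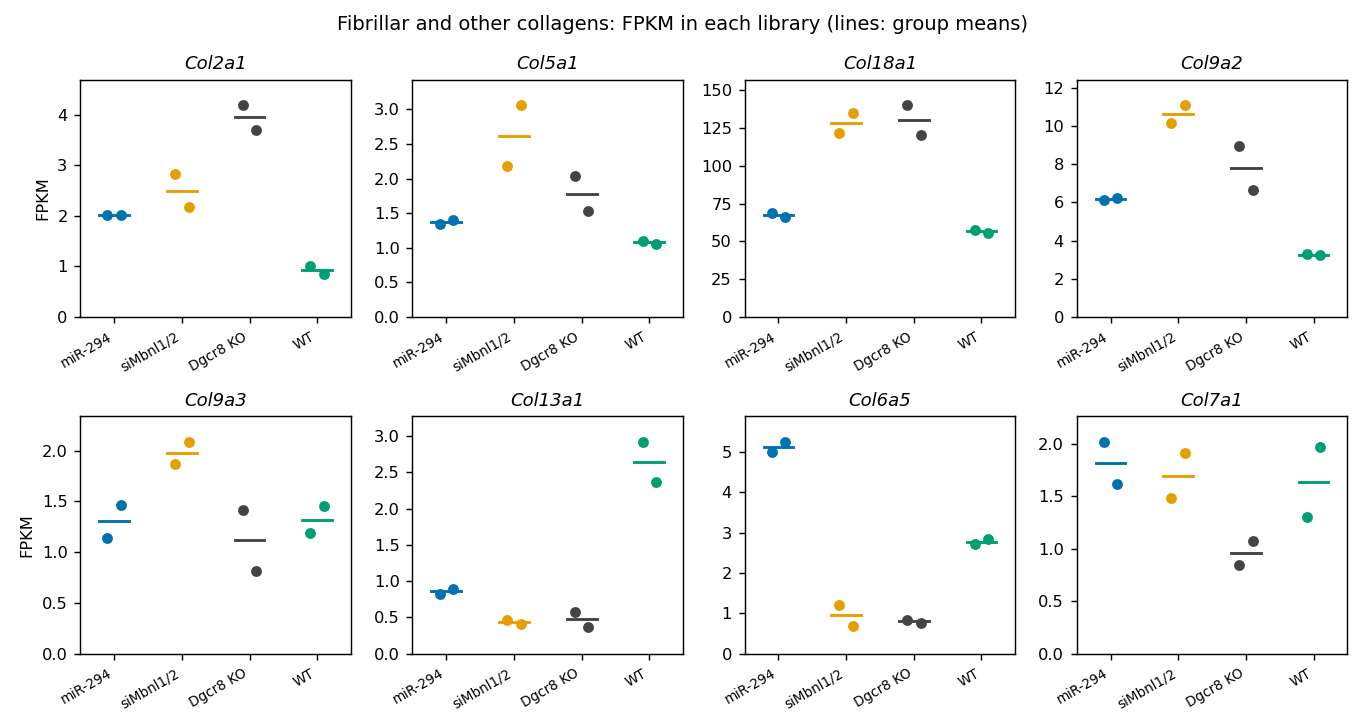
FPKM of the 2 tested fibrillar collagens (Col2a1, Col5a1) and the 6 tested other collagens in each library, with a line at each group mean and an axis from 0 for each gene. Col18a1 lies at 120.3 FPKM or more in the siMbnl1/2 and Dgcr8 KO libraries and at 68.9 FPKM or less in the miR-294 and WT libraries, and Col6a5 is highest with miR-294.

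Set against WT cells, miR-294 cells had 5 of the 17 genes higher and 5 lower, where 26.5% of all tested genes were called, 11.8% higher and 14.7% lower. The type IV collagen pair stayed far below WT, with differences of -2.65 ± 0.15 for Col4a1 (adjusted p = 6.35e-05) and -2.48 ± 0.19 for Col4a2 (adjusted p = 2.05e-04). Lama1 (-1.93 ± 0.10, adjusted p = 4.54e-05), Lamb1 (-1.39 ± 0.14, adjusted p = 5.84e-04) and Col13a1 (-0.97 ± 0.13, adjusted p = 0.00193) were also lower than in WT cells. Lama3, Lama5, Col2a1, Col6a5 and Col9a2 were higher, by 0.40 (Lama5) to 1.76 (Lama3). The calls of Lama5, Col2a1 and Col6a5 were each lost without miR-294 replicate 1, miR-294 replicate 2 or WT replicate 2, and those of Lama5 and Col6a5 also without WT replicate 1, with adjusted p-values of up to 0.237, and that of Lama5 also without a filter (adjusted p = 0.0952). The number of genes called higher was then 2 or 3 in place of 5. Lamb2, Lamc1 and Col18a1 did not pass in this comparison, with differences of -0.19 ± 0.18, -0.19 ± 0.10 and 0.25 ± 0.09. All 9 endoderm markers tested were lower with miR-294 than in WT cells. The comparisons of miR-294 with WT and with Dgcr8 KO share libraries and are not independent of each other.

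In siMbnl1/2 cells compared with Dgcr8 KO cells, none of the 17 genes was called by limma, where 1.11% of all tested genes were, 0.868% higher and 0.242% lower. At an unadjusted p under 0.05, 6 of the 17 were higher and 1 lower, beside 1626 higher and 729 lower of all 12786 genes, or 18.4%. Differences ran from -0.50 ± 0.13 for Col2a1 (adjusted p = 0.0983) to 0.51 ± 0.16 for Col9a3 (adjusted p = 0.158). Lama1, at 5.91 and 6.85 FPKM with siMbnl1/2, against 5.35 and 4.66 FPKM in Dgcr8 KO cells, was higher in each siMbnl1/2 library (0.30 ± 0.10, adjusted p = 0.168). Lama5 was at 50.4 and 56.9 FPKM with siMbnl1/2, against 46.0 and 39.7 FPKM in Dgcr8 KO cells, also without overlap (0.32 ± 0.12, adjusted p = 0.203). The siMbnl1/2 libraries differed from each other in several basement membrane chains. Lamb2 was at 26.6 and 41.05 FPKM and Col4a2 at 10.3 and 16.6 FPKM in siMbnl1/2 replicates 1 and 2, ranges that overlap those of Dgcr8 KO cells. The median within-group SD over all tested genes was 0.12 on the log2 scale with siMbnl1/2 and 0.10 in Dgcr8 KO cells, against 0.05 with miR-294 and 0.05 in WT cells. Without siMbnl1/2 replicate 1, Col4a2 was the 1 gene of the 17 called, at a difference of 0.66 (adjusted p = 0.0389). That fit leaves siMbnl1/2 replicate 2 alone, the library with the higher Col4a2 level, and assumes that it varies like the other groups. Over all genes 150 were then higher and 53 lower, against 461 and 189 without siMbnl1/2 replicate 2, 111 and 31 with all libraries, and 1 and 3 where only siMbnl1/2 and Dgcr8 KO libraries were fitted. The number of calls in this comparison thus depends on which libraries are fitted.

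The direct comparison of siMbnl1/2 with miR-294 cells, both of which carry the Dgcr8 deletion and received a small RNA, showed 8 of the 17 genes higher and 4 lower, where 54% of all tested genes were called, 33% higher and 21% lower. The largest differences were those of Lamb2 (1.54 ± 0.18, adjusted p = 3.80e-04) and Col6a5 (-1.67 ± 0.14, adjusted p = 1.03e-04). Col18a1 was at 121.8 and 135.1 FPKM with siMbnl1/2, against 68.9 and 66.3 FPKM with miR-294 (0.92 ± 0.09, adjusted p = 1.70e-04). Col4a2 (0.88 ± 0.19), Lama5 (0.76 ± 0.12), Col9a2 (0.69 ± 0.13), Col5a1 (0.60 ± 0.15) and Col4a1 (0.46 ± 0.15) were also higher with siMbnl1/2, and Lama1 (-0.67 ± 0.10), Lama3 (-0.49 ± 0.12) and Col13a1 (-0.37 ± 0.13) were lower. Calls of Col4a1, Col13a1, Lama3 and Col5a1 were lost without miR-294 replicate 1 or 2, those of Col4a1 and Col13a1 also without siMbnl1/2 replicate 2 or either WT library, and that of Col13a1 without siMbnl1/2 replicate 1. The adjusted p-values were then up to 0.161, and 2 genes in place of 4 were called lower without either miR-294 library. Without siMbnl1/2 replicate 2 the difference of Col4a2 was 0.55 (adjusted p = 0.00478) and that of Col4a1 0.23 (adjusted p = 0.102). The call of Col4a1 was lost also with median-of-ratios scaling (adjusted p = 0.0581), quantile-normalized values (0.30, adjusted p = 0.110), no filter (adjusted p = 0.0756) or the 4 libraries of the comparison alone (adjusted p = 0.0752). That of Col13a1 was lost with no filter (adjusted p = 0.0670) or those 4 libraries (adjusted p = 0.0628). With quantile-normalized values Lama3, Col5a1 and Col9a2 were still called, at -0.76, 0.39 and 0.46. The median difference over all genes was 0.10 as deposited, -0.01 with median-of-ratios scaling and -0.02 with quantile-normalized values. The split of all calls was 4217 higher and 2685 lower as deposited, 3362 and 3545 with median-of-ratios scaling, and 3131 and 3382 with quantile-normalized values.

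**Figure D5:**
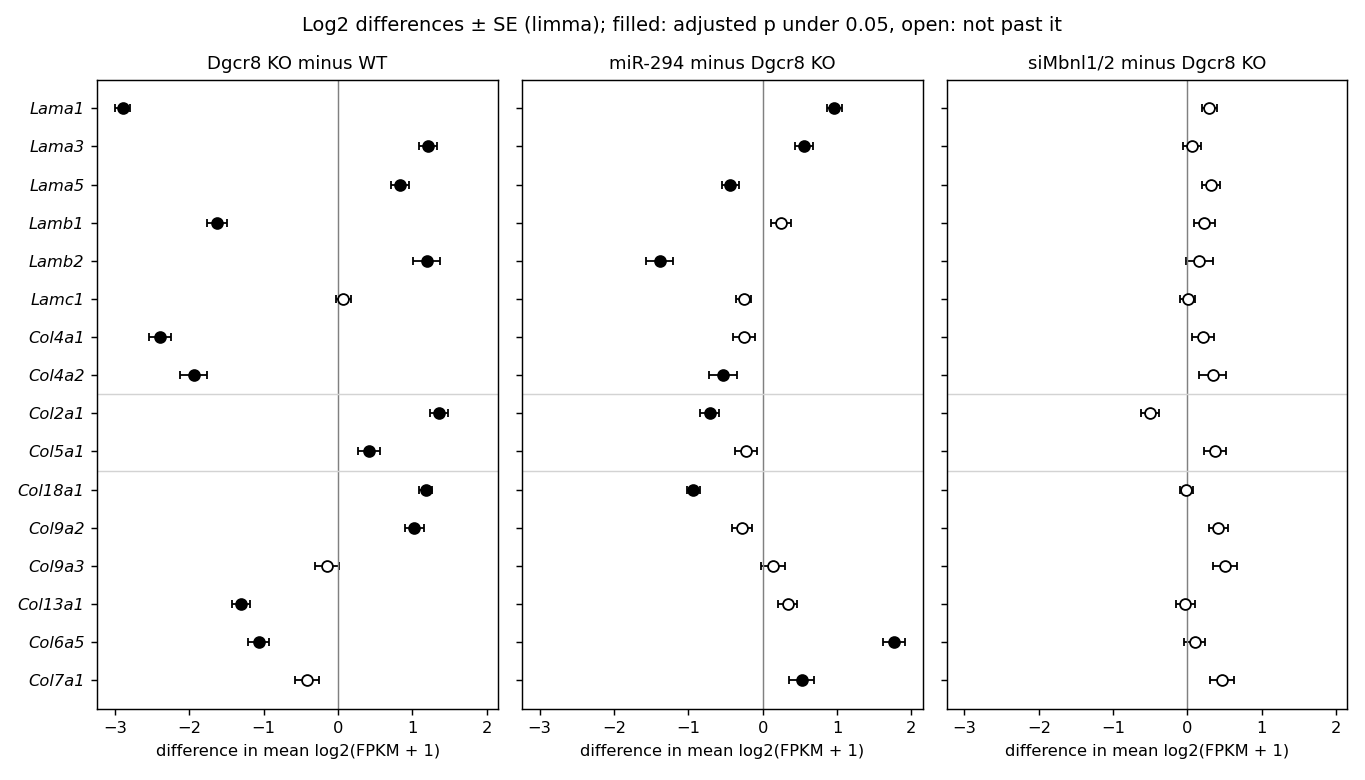
Difference of mean log2(FPKM + 1) ± SE from limma for 16 tested genes, with panels for Dgcr8 KO minus WT (left), for miR-294 minus Dgcr8 KO (middle) and for siMbnl1/2 minus Dgcr8 KO (right). Points are filled at an adjusted p under 0.05, and grey lines part basement membrane chains, fibrillar collagens and other collagens. In the left panel the points spread over -2.90 (Lama1) to 1.36 (Col2a1), and in the right panel, where all points are open, over -0.50 to 0.51.

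The 38 genes below the filter had 0 to 1.46 FPKM. Among basement membrane chains these were Col4a3, Col4a4, Col4a5 and Col4a6, the chains of specialised type IV collagen such as that of kidney and eye, and Lama2, Lama4, Lamb3 and Lamc3, at 0 to 1.35 FPKM. Lama2, the alpha chain of muscle laminin, had 0.00798 to 0.23 FPKM, and Lama4, that of vascular laminin, 0.27 to 0.47 FPKM. Col10a1, the collagen of growth plate cartilage, was listed at 0 in all libraries. A fit without the filter held 37 of these genes, of which 1 was higher and 4 lower in Dgcr8 KO cells than in WT cells. Over all genes 14.4% were higher and 14.8% lower there. Col26a1 was higher in Dgcr8 KO cells, at 1.05 and 0.67 FPKM, than in WT cells, at 0.30 and 0.27 FPKM (0.53 ± 0.12, adjusted p = 0.0196). Lower were Col1a1, Col1a2 and Col27a1, as given above, and the type VI chain Col6a4 (-0.27 ± 0.07, adjusted p = 0.0354). In that fit 2 of the 37 were higher and 0 lower with miR-294 than in Dgcr8 KO cells, where 23.5% of all genes were called, 10.7% higher and 12.8% lower. Col8a2, a short-chain collagen, was at 0.67 and 0.59 FPKM with miR-294, against 0.15 and 0.13 FPKM in Dgcr8 KO cells (0.51 ± 0.12, adjusted p = 0.0274). The other was the type VI chain Col6a6, with a small difference (0.11 ± 0.02, adjusted p = 0.0152). Of the 17 tested genes 6 share exon bases with another annotated gene (Col4a1, Col4a2, Col5a1, Col7a1, Col9a3 and Lama3), by 22 to 234 bases, and whether the counting used strand is not stated.

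Genes that act on these chains were read from lists. Beside each count of calls stand the shares over all tested genes, 29.6% higher and 30.1% lower in Dgcr8 KO minus WT and 22.9% higher and 29.2% lower in miR-294 minus Dgcr8 KO, comparisons that share the Dgcr8 KO libraries. Of 10 tested further basement membrane components, 8 were higher in Dgcr8 KO cells than in WT cells and 0 lower, and with miR-294 0 were higher than in Dgcr8 KO cells and 8 lower. Npnt, the integrin ligand nephronectin, was at 8.97 and 8.47 FPKM in Dgcr8 KO cells, against 1.49 and 1.58 FPKM in WT cells (1.94 ± 0.10, adjusted p = 8.85e-06). With miR-294 Npnt was at 3.46 and 3.25 FPKM (-1.16 ± 0.10 from Dgcr8 KO, adjusted p = 1.25e-04). Tinagl1, a matricellular protein related to tubulointerstitial nephritis antigen, was at 9.13 and 7.77 FPKM with miR-294, against 21.8 and 17.7 FPKM in Dgcr8 KO cells (-1.13 ± 0.27, adjusted p = 0.0105), a call lost without miR-294 replicate 2 or Dgcr8 KO replicate 1 (adjusted p of up to 0.0656). The median difference of the list was 0.79 in Dgcr8 KO minus WT and -0.52 in miR-294 minus Dgcr8 KO, beside 0.00 and -0.06 over all genes.

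Of 8 tested receptors for collagen and laminin, 6 were higher and 1 lower in Dgcr8 KO cells than in WT cells, and with miR-294 0 were higher and 6 lower than in Dgcr8 KO cells, where 59.8% and 52.2% of all tested genes were called in either direction. Ddr2, a receptor tyrosine kinase for fibrillar collagen, was at 4.53 and 5.46 FPKM in Dgcr8 KO cells, against 0.29 and 0.36 FPKM in WT cells (2.17 ± 0.12, adjusted p = 1.03e-05). Itgb4, the integrin beta chain that binds hemidesmosomal laminin, was at 18.04 and 14.7 FPKM in Dgcr8 KO cells, against 5.49 and 4.19 FPKM in WT cells (1.58 ± 0.16, adjusted p = 1.25e-04). With miR-294 Itgb4 was at 9.12 and 9.72 FPKM (-0.73 ± 0.16 from Dgcr8 KO, adjusted p = 0.00646), between the other groups. Itgb4 and Lamb2 were both higher in each siMbnl1/2 and Dgcr8 KO library than in any miR-294 or WT library.

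Of 16 tested genes of collagen modification and secretion, 5 were higher and 5 lower in Dgcr8 KO cells than in WT cells, and with miR-294 2 were higher and 10 lower than in Dgcr8 KO cells. The 10 calls against WT are near the 59.8% of all tested genes called there, and 52.2% were called with miR-294. P4ha2, a subunit of the prolyl hydroxylase that stabilises the collagen helix, was at 4.94 and 5.19 FPKM in Dgcr8 KO cells, against 18.4 and 18.01 FPKM in WT cells (-1.67 ± 0.11, adjusted p = 2.62e-05). It was at 10.7 and 8.39 FPKM with siMbnl1/2 (0.79 ± 0.11 from Dgcr8 KO, adjusted p = 0.0322), the 1 gene of this list called in that comparison. That call was lost without a filter, with the 4 libraries of the comparison alone (adjusted p = 0.240), and without any library of the miR-294, Dgcr8 KO or WT groups. Mia3, which carries collagen out of the endoplasmic reticulum, was at 74.5 and 63.0 FPKM in Dgcr8 KO cells, against 21.3 and 29.8 FPKM in WT cells (1.41 ± 0.16, adjusted p = 2.56e-04). A second entry of this symbol, also past the filter, had a lower mean, 17.1 against 50.1 FPKM. Its difference is not given here, so the rise describes the more abundant entry alone. Enzymes of cross-linking included Loxl4, a lysyl oxidase, at 11.7 and 9.19 FPKM in Dgcr8 KO cells, against 0.30 and 0.26 FPKM in WT cells (3.16 ± 0.20, adjusted p = 1.83e-05). With miR-294 Loxl4 fell to 1.88 and 1.65 FPKM (-2.04 ± 0.20 from Dgcr8 KO, adjusted p = 2.02e-04), and the transglutaminase Tgm2 fell to 1.55 and 1.79 FPKM, against 6.52 and 4.86 FPKM in Dgcr8 KO cells (-1.32 ± 0.24, adjusted p = 0.00319). Of 8 tested genes of extracellular collagen processing and cross-linking, 2 were higher and 0 lower in Dgcr8 KO cells than in WT cells. With miR-294 0 were higher and 3 lower than in Dgcr8 KO cells. Both counts are below the 59.8% and 52.2% called over all genes.

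Of 7 tested matrix metalloproteinases and inhibitors, 1 was higher and 2 lower in Dgcr8 KO cells than in WT cells, and with miR-294 2 were higher and 2 lower than in Dgcr8 KO cells. The 3 calls are below the share of 59.8% over all genes, and the 4 calls with miR-294 are near the share of 52.2%. Mmp14, a membrane-bound proteinase that cleaves collagen, was at 8.41 and 8.0 FPKM with miR-294, against 17.9 and 15.4 FPKM in Dgcr8 KO cells (-0.93 ± 0.10, adjusted p = 3.13e-04). Mmp14 was also the 1 gene of the list called higher in Dgcr8 KO cells than in WT cells, by 0.31. In limma that call was lost without a filter (adjusted p = 0.0678) and with quantile-normalized values (adjusted p = 0.0604). Without each library in turn the difference ranged from 0.21 to 0.41. Timp2, an inhibitor of these proteinases, was at 0.89 and 0.52 FPKM in Dgcr8 KO cells, against 3.69 and 3.18 FPKM in WT cells (-1.38 ± 0.19, adjusted p = 5.97e-04).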

How the data were processed

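The deposited table gives FPKM per gene entry and library, made by the authors from reads processed with STAR 2.5.0 and Cufflinks 2.2.1 on the mm10 build, per the submitters' processing notes. Libraries followed a strand-keeping dUTP protocol, per the labels' protocols. The material is polyA RNA in the labels and total RNA in the design text. Since FPKM is scaled within a library, abundant transcripts that gain push the others down. Read counts and depth are not known, so values carry no counting interval.

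Values were analysed as log2(FPKM + 1). The 12786 entries with a mean of at least 1 FPKM over the 8 libraries were fitted with 4 group means in limma 3.58.1 (R 4.3.3, statmod 1.5.0, data.table package 1.17.8), with trended and robust variance. All tests were two-sided, with Benjamini-Hochberg adjustment over all entries. The step was also run on simulated data in which few genes changed, unlike most of these comparisons. That run does not bear on the calls reported here.

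Members and lists were chosen with earlier results of these data known. Named were the tested members (1 is counted but its own values are not reported here, so 16 are shown), and per list the 2 called genes with the largest difference from or to Dgcr8 KO. The annotation release is not stated, and 53 of the 55 members lie at GENCODE M21 coordinates, from which exons and 3′ UTRs were taken. Promoters (40 of 55 members matched) and the microRNA are from RefSeq. Alternatives were the pseudocount, the filter, scaling, a replicate block, the libraries in the fit, and leaving out each library.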

Additional observations from a re-analysis of the deposited data

How the results depend on the processing

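Of 63 differences of the 17 tested genes that were followed, 43 kept their direction and their side of the threshold in every alternative, and 20 did not in at least 1. For the named genes that act on these chains, 41 differences were followed, of which 27 kept both and 14 did not. Signs turned for 2 genes that were not called. Without 1 library in turn, Lamc1 in Dgcr8 KO minus WT ranged from -0.0099 (without Dgcr8 KO replicate 1) to 0.15. Over the same settings Col9a3 ranged from -0.35 to 0.062 in Dgcr8 KO minus WT and from -0.074 to 0.34 in miR-294 minus Dgcr8 KO, with the sign turned without Dgcr8 KO replicate 2. The cause was not tested.

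Counts of the 17 genes ranged, without each library in turn, from 7 to 8 higher and 6 to 7 lower in Dgcr8 KO minus WT, 3 to 6 and 4 to 8 in miR-294 minus Dgcr8 KO, 0 to 1 and 0 to 0 in siMbnl1/2 minus Dgcr8 KO, 6 to 9 and 2 to 4 in siMbnl1/2 minus miR-294, and 2 to 7 and 5 to 5 in miR-294 minus WT. The numbers called over all genes also moved between these settings, so the ranges alone do not set the 17 genes apart. Without a filter, which adds genes to the test, 10 members were lower in Dgcr8 KO minus WT, beside 14.8% of all 28009 genes.

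The ratio of basement membrane to fibrillar sums depends on the members summed. With tested members alone it was 60.5 with miR-294, 58.1 with siMbnl1/2, 47.6 in Dgcr8 KO and 189.0 in WT cells. As 2 to the difference of class means of log2(FPKM + 1), over the same tested members, it was 6.13, 6.37, 5.38 and 13.2 in that order of groups. Without the most abundant gene of each class it was 29.9 with miR-294, 44.7 in Dgcr8 KO and 58.7 in WT cells. With siMbnl1/2 it then stayed within 6.98, the SD of the 2 libraries, of the mean ratio of 41.0. WT cells stayed highest in each of these, but the ratios over tested members are no independent check. Their fibrillar class is Col2a1 and Col5a1 alone, both higher in Dgcr8 KO than in WT cells. Col1a1, Col1a2 and Col27a1, lower in Dgcr8 KO cells in the fit without a filter, are left out of them. A high WT ratio is thus partly built in there. Leaving out 1 library of a group gave the ratio of its other library, so 34.6 to 36.2, 36.1 to 45.9, 35.9 to 36.2 and 67.7 to 67.8. These repeat the ratios per library given above and are no further check.

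Replicate numbers are shared between groups, but nothing says that they mark a shared day, and deviations of same-numbered libraries correlated at -0.05 to 0.19. With the replicate number as a block, 7 members were higher and 6 lower in Dgcr8 KO minus WT, 4 and 5 in miR-294 minus Dgcr8 KO, 7 and 4 in siMbnl1/2 minus miR-294, 4 and 5 in miR-294 minus WT and 0 in siMbnl1/2 minus Dgcr8 KO. Over all 12786 genes the block gave, in that order, 3541 and 3606, 2677 and 3405, 3875 and 2431, 1201 and 1412, 25 and 8. Under the block the adjusted p was 0.0685 for Col5a1 in Dgcr8 KO minus WT, 0.0667 for Col4a2 in miR-294 minus Dgcr8 KO, 0.0526 for Col4a1 in siMbnl1/2 minus miR-294, 0.0561 for Lama5 in miR-294 minus WT, and 0.0875 for P4ha2 in siMbnl1/2 minus Dgcr8 KO, all of them called without it. With 2 libraries per group, an unusual library cannot be told from its group.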
